A study of Homo sapiens with 21 samples.

Results

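Genes of pulsed cells were followed 12 h after the withdrawal of doxycycline (Dox) and set against the cells from which the pulse had started. The cells were H9, an established human embryonic stem cell line, in 1 transgenic line labelled TRE3G-2xFLAG GSX2 WT, in which Dox switches on FLAG-tagged wild-type GSX2 from the TRE3G promoter. They were differentiated toward cells like the progenitors of the lateral ganglionic eminence (LGE), the ventral forebrain swelling that gives rise to striatal neurons. The comparison used all 3 libraries labelled 24hr +Dox (100 ng/mL Dox for 12 h from day 10, collected 24 h after day 10) and all 3 labelled Day 10, which are 6 of the 21 libraries of the series. The 3 libraries labelled 12hr +Dox gave the direction of each gene at the end of the pulse, and the 3 labelled 24hr -Dox (NoDox) gave the change over the same 24 h with no Dox. All groups carried the transgene and had the same media: LDN193189, SB431542 and XAV939 (inhibitors of BMP, TGF-beta and WNT signals), then LDN193189 with SB431542, then IWP2 (which blocks WNT secretion) with Activin A. No group had Dox but no transgene, and effects of the drug itself cannot be told apart from those of GSX2. The labels do not say whether replicates came from separate cultures, and the p-values then cover only the spread among these libraries, which may be technical.

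GSX2 is a homeobox transcription factor of LGE progenitors. In the mouse it holds back dorsal forebrain genes and the onset of neuron formation, and its level falls as progenitors move on to make neurons. A pulse of such a factor can leave a gene changed, let it come back to where it began, or be followed by a level on the other side of the start.

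The transgene had not fully gone at 24 h. It was at 13.6, 19.6 and 25.2 CPM (counts per 1000000, scaled between libraries) at 24 h Dox, against 0.352, 0.308 and 0.265 CPM at day 10. At the end of the pulse it had been at 951, 932 and 745 CPM. The 24 h groups did not overlap, and the log2 fold change over day 10 was 5.98 ± 0.37 (approximate standard error, n = 3 per group throughout; adjusted p = 5.45e-10). Reads counted for GSX2 itself were 4.04, 5.48 and 9.31 CPM at 24 h Dox, against 12.2, 8.36 and 7.78 CPM at day 10. These ranges overlapped and the difference did not pass (-0.56 ± 0.24, adjusted p = 0.0798). Reads of the transgene may have been counted for GSX2 as well, so its value is uncertain.

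Total counts ran from 21917416 to 24301687 per library at 24 h Dox and 14439089 to 22437237 at day 10, and from 17519026 to 33842591 in the 12 h Dox and 24 h NoDox libraries. Replicates differed by more than sampling noise, with a ratio of chi-square to degrees of freedom of 1.85 to 4.84 within 24 h Dox and 2.29 to 14.5 at day 10. Day 10 replicate 1 stood apart (10.8 and 14.5 against the other replicates), and so did 12 h Dox replicate 3 (26.8 and 16.7). The telencephalic progenitor markers summed to 4450 to 4750 CPM at 24 h Dox and 4570 to 4610 CPM at day 10. The pluripotency genes POU5F1 and NANOG were near 0, with 6 and 7 reads over the 24 h Dox libraries, against 4 and 2 reads at day 10. Other genes of that list were expressed, among them DPPA4, LIN28A and DNMT3B. Its tested members summed to 267 to 279 CPM at 24 h Dox and 318 to 340 CPM at day 10. The mesoderm and endoderm genes TBXT, SOX17, FOXA2 and AFP had 0 reads in both groups. The tested members of that list, GATA4, GATA6, MESP1 and MIXL1, summed to 1.52 to 1.76 CPM at 24 h Dox and 1.41 to 1.72 CPM at day 10.

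Of 61268 features in the count table, 19655 were tested. At an adjusted p below 0.05, 3609 features (18.4%) were higher at 24 h Dox than at day 10 and 3726 (19.0%) lower. By at least 2-fold, 889 (4.52%) were higher and 634 (3.23%) lower. Of these, 585 were also higher and 527 also lower than in NoDox cells of 24 h. NoDox cells of 24 h had themselves changed from day 10, with 1738 features (8.84%) higher and 1664 (8.47%) lower. In bulk RNA, fewer cells of a type and less RNA per cell cannot be told apart.

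Genes were then sorted by where they had stood at the end of the pulse. That change was taken against day 10 and not against NoDox cells of 12 h. The classes therefore also count changes over those 12 h that NoDox cells shared, as for HSPH1 and LANCL2 below. At 12 h Dox, 1042 features (5.30%) were at least 2-fold below day 10 and 1286 (6.54%) at least 2-fold above. A gene overshot if it was called on the other side of day 10 at 24 h. It had returned if it had moved back and the 95% interval of its fold change over day 10 lay within 1.5-fold. It had returned in part if it had moved back but was still called on the same side of day 10, and was kept if it was still called there with no called move back. A move back was a called difference between 24 h and 12 h Dox, where 21.5% of features were higher and 21.1% lower. Of the 1042 low genes, 77 overshot (7.39%), 136 had returned (13.1%), 262 had returned in part, 326 had kept their change and 241 could not be placed. Of the 1286 high genes, 5 overshot (0.389%), 48 had returned (3.73%), 186 had returned in part, 437 had kept their change and 610 could not be placed. Both shares of overshooting genes lay below those over all features, of which 18.4% were called higher at 24 h Dox than at day 10 and 19.0% lower. The median level of the high genes was 1.63 CPM at 12 h Dox and 0.560 CPM at day 10, and that of the low genes was 1.88 CPM at 12 h Dox and 6.27 CPM at day 10. A further 260 features that were not called at 12 h were first called at 24 h as at least 2-fold higher, and 150 as at least 2-fold lower.

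**Figure D1:**
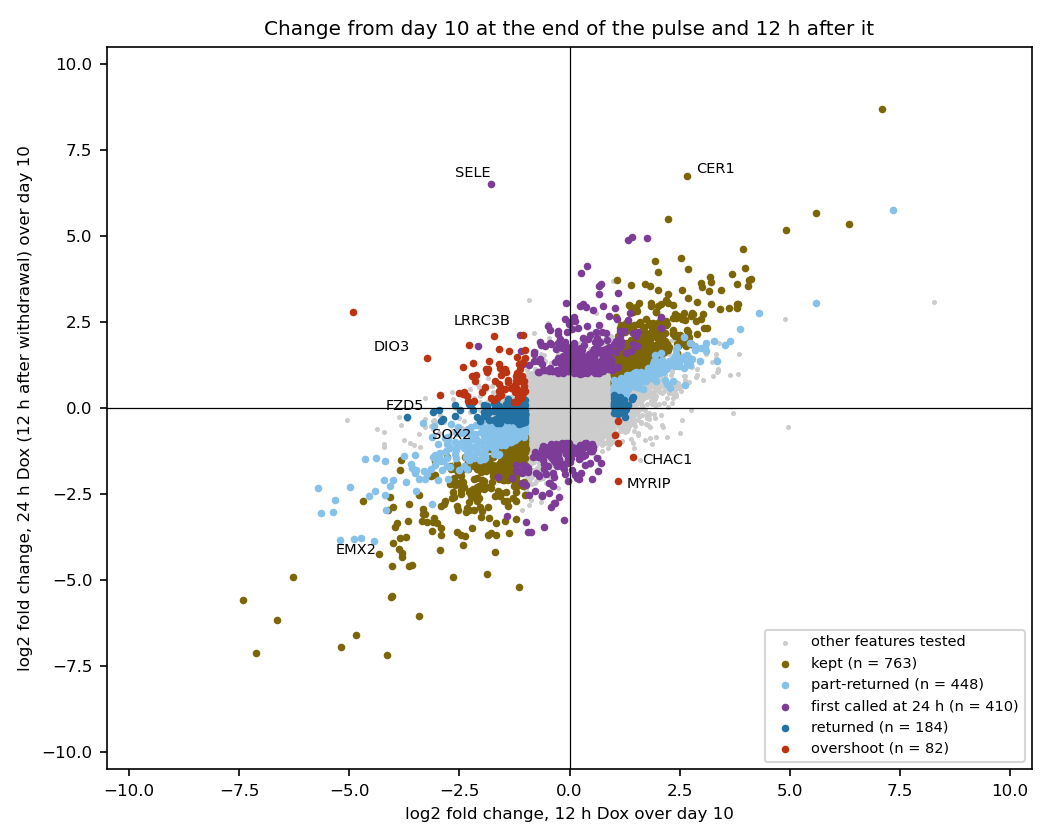
Each point is a feature tested: log2 fold change over day 10 at 12 h Dox (x axis) and at 24 h Dox (y axis), coloured by class. Of the 82 red overshooting genes, 77 sit in the upper left quadrant and 5 in the lower right; 1 feature, the transgene, lies outside the axes.

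Without day 10 replicate 1, 82 genes overshot in all, 68 of them among the 82 of the full data, and without 12 h Dox replicate 3, 87 did, 73 of them shared. The count of low genes that overshot was 66 to 90 when any 1 library of the 3 groups was left out. The 24 of them that overshot by at least 2-fold became 21 to 27. Without day 10 replicate 3, the returned high genes were 28 in place of 48, and without day 10 replicate 2 the overshooting high genes were 3 in place of 5. The classes use the 12 h Dox libraries, whose scaling factors of 1.121 to 1.145 stood above those of 24 h Dox (1.000 to 1.010) and day 10 (0.984 to 1.016). With library totals as the only scaling, the median of all features at 12 h moved to 0.19 on the log2 scale from 0.014. Then 57 of the 82 overshooting genes kept that class, 21 of the 27 strong ones among them, and 13 high genes overshot in place of 5. The comparison of 24 h Dox with day 10 did not shift (medians 0.000 and 0.001).

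The sequences 250 bases before to 50 bases after the starts of a pair of overshooting genes are printed from RefSeq (GRCh38.p14), 5′ to 3′ on the gene's strand. DUSP6 is shown as the 1 of 3 overshooting FGF and ERK feedback genes that passed day 10 by at least 2-fold (chr12:89352452-89352751, minus strand) and LRRC3B as a gene whose start is overlapped by an antisense gene that overshot too (chr3:26622522-26622821, plus strand). Capitals mark CTTCCG, the reverse strand of CGGAAG, a core recognised by ETS factors.
DUSP6: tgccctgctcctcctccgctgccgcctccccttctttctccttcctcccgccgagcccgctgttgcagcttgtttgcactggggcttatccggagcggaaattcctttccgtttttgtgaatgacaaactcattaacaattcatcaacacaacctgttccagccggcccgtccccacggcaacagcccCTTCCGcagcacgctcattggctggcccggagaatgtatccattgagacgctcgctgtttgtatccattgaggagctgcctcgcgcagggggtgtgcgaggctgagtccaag
LRRC3B: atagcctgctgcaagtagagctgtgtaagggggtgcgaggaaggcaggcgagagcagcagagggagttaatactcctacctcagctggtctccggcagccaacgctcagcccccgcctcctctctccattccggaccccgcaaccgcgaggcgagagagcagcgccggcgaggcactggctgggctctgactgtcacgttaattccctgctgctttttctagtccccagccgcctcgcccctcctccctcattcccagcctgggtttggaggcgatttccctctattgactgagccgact
CGGAAG on either strand was in 30.2% of the 12958 tested promoters that the table held and in 9 of 50 promoters (18.0%) of overshooting low genes. TAATTA, a homeodomain core that reads the same on both strands, was in 2.21% of all and in 4 of 50 (8.00%), which were those of EBF1, GCNT1, LMO3 and MGST1. MGST1 kept the overshoot class in 8 of 16 settings. Among low genes that overshot by at least 2-fold, TAATTA was in 0 of 16 promoters and CGGAAG in 2 of 16 (12.5%). Among FGF and ERK feedback genes, TAATTA was in 0 of 14 and CGGAAG in 3 of 14 (21.4%). A match is a description of these letters and not of binding.

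Named genes that overshot by at least 2-fold included receptor and adhesion genes of neurons. LRRC3B (chromosome 3, 26622772 to 26717537, hg38), a leucine-rich repeat membrane protein gene, was at 30.3, 32.0 and 31.0 CPM at 24 h Dox, against 8.60, 6.38 and 7.03 CPM at day 10. It had been at 2.40, 2.00 and 2.14 CPM at the end of the pulse and was at 7.05, 6.09 and 6.39 CPM at 24 h without Dox. The 24 h Dox libraries lay far above every other group, and the log2 fold change over day 10 was 2.10 ± 0.12 (adjusted p = 3.49e-14). LRRC3B-AS1, whose annotated span overlaps the start of LRRC3B on the other strand, had the same order at lower values (1.84 ± 0.45, adjusted p = 0.00177). The counting's strand setting is not known here, so such overlapping pairs are uncertain.

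GRIK3, which encodes a kainate-type glutamate receptor subunit, was at 27.0, 22.6 and 20.4 CPM at 24 h Dox, against 5.35, 8.06 and 7.60 CPM at day 10 (1.71 ± 0.14, adjusted p = 8.31e-11). GABRA5, which encodes a GABA-A receptor subunit, was at 6.80, 5.87 and 6.42 CPM at 24 h Dox, against 3.10, 2.77 and 2.12 CPM at day 10 (1.28 ± 0.19, adjusted p = 4.80e-06). SLITRK2, a synaptic adhesion gene, was at 49.4, 49.8 and 42.0 CPM at 24 h Dox, against 16.8, 21.8 and 22.6 CPM at day 10 (1.19 ± 0.10, adjusted p = 2.71e-10). In each of the 3 genes the groups did not overlap, and the 12 h Dox libraries lay below day 10, at no more than 4.94 CPM for SLITRK2 and 2.73 CPM for GRIK3. Others were NTRK2, the receptor for BDNF (1.27 ± 0.24, adjusted p = 1.10e-04), and CNTN2, a contactin of early axons (1.33 ± 0.17, adjusted p = 7.85e-06). For CNTN2 the values were 202, 154 and 146 CPM at 24 h Dox, against 59.2, 71.8 and 68.6 CPM at day 10, and NoDox cells of 24 h also stood above day 10, at 138, 115 and 113 CPM. Both genes left the overshoot class with library totals alone and without 1 library of 12 h Dox (replicate 2 for NTRK2, replicate 3 for CNTN2).

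**Figure D2:**
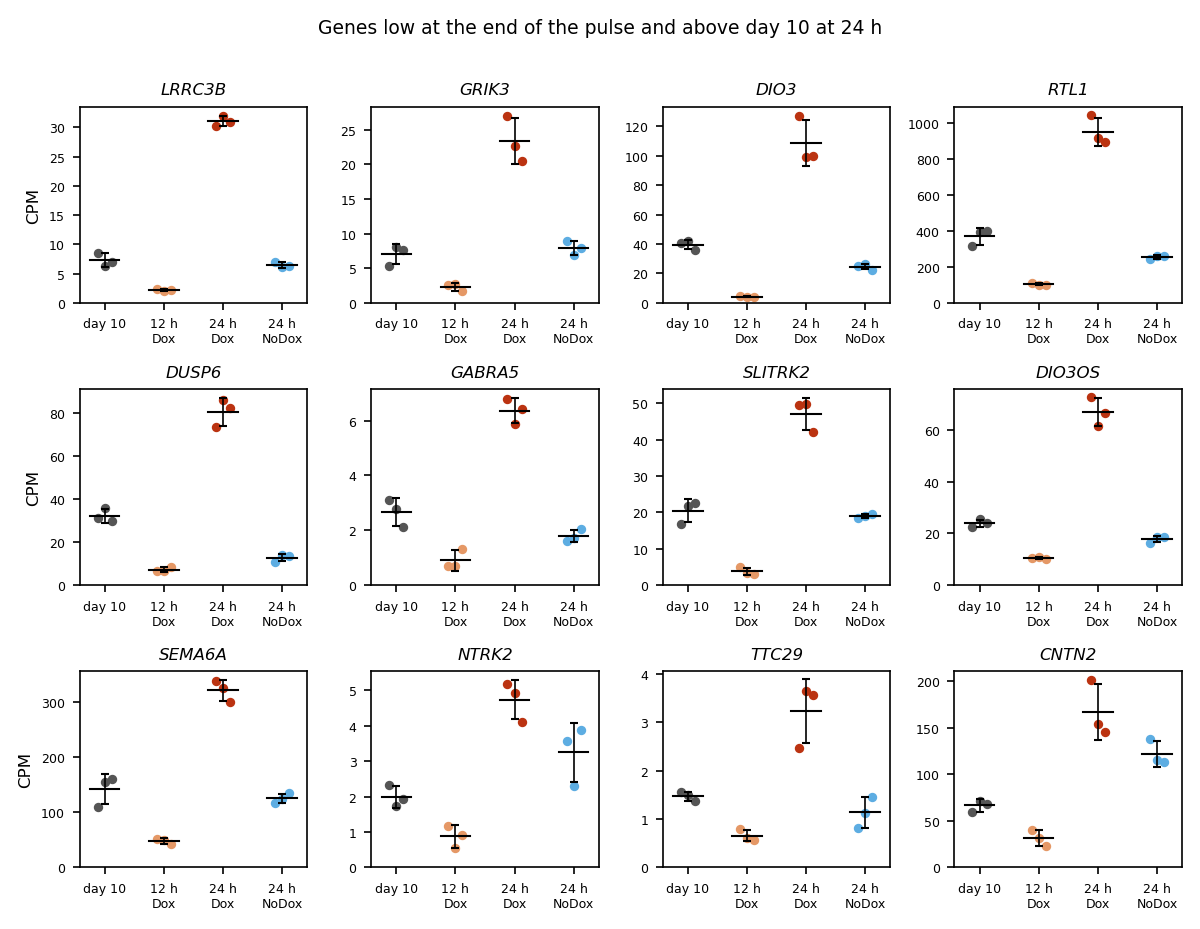
CPM in each library (points), with mean and SD (bars, n = 3), for the 12 genes named for an overshoot of at least 2-fold from a low level at 12 h, at day 10, 12 h Dox, 24 h Dox and 24 h NoDox. Every 24 h Dox library lies above every day 10 library; in GRIK3, NTRK2 and CNTN2 the NoDox means also stand above day 10.

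DIO3, which encodes the enzyme that inactivates thyroid hormone, was at 127, 99.4 and 99.7 CPM at 24 h Dox, against 41.0, 41.8 and 36.1 CPM at day 10 (1.46 ± 0.09, adjusted p = 6.53e-14). It had been at 4.40, 4.20 and 3.82 CPM at the end of the pulse, and NoDox cells of 24 h were at 24.8, 26.1 and 22.7 CPM, below day 10. Without Dox it was already at 22.7, 26.3 and 23.5 CPM at 12 h. RTL1, an imprinted gene derived from a retrotransposon, was at 1040, 912 and 895 CPM at 24 h Dox, against 317, 392 and 400 CPM at day 10 (1.36 ± 0.08, adjusted p = 2.24e-14). In both genes the groups did not overlap. DIO3 lies within the span of DIO3OS (1.48 ± 0.10) and RTL1 overlaps MEG8, each on the other strand, so the split of reads between them is uncertain.

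Axon guidance genes moved in both directions. SEMA6A, a transmembrane semaphorin, was at 338, 326 and 300 CPM at 24 h Dox, against 110, 154 and 161 CPM at day 10 (1.18 ± 0.11, adjusted p = 3.25e-08). It had been at 51.7, 49.7 and 41.8 CPM at the end of the pulse, and the groups did not overlap. SLIT1, a secreted repellent, was 1.46 ± 0.14 above day 10, but NoDox cells were also above it (1.08 ± 0.14, adjusted p = 1.46e-05), and its 12 h change of -1.01 lay at the 2-fold threshold, so that it kept the class in 10 of 16 settings. The semaphorin receptor NRP2 (0.78, adjusted p = 1.4e-05), SEMA6D (0.66, adjusted p = 2.23e-05) and the ephrin EFNA5 (0.18, adjusted p = 0.0101) overshot by less. Of the axon guidance list, 12 of 33 tested members were higher at 24 h Dox than at day 10, 12 were lower and the median was -0.01 on the log2 scale, against 0.001 over all features. For this list and those below, the shares over all features were 18.4% higher and 19.0% lower. They were 8.84% higher and 8.47% lower for NoDox cells of 24 h against day 10. SLIT3 (2.65, adjusted p = 3.23e-14) was first called at 24 h. ROBO2, a SLIT receptor (-2.04), UNC5D, a netrin receptor (-2.27), and EPHA7, an ephrin receptor (-1.76), were lower.

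FGF signals pass through receptors and the kinase ERK, which switches on ETS factors of the ETV group and the brakes SPRY and DUSP. DUSP6, which inactivates ERK, was at 73.6, 86.3 and 82.4 CPM at 24 h Dox, against 31.1, 35.8 and 29.8 CPM at day 10. It had been at 6.47, 6.35 and 8.56 CPM at the end of the pulse and was at 11, 14.1 and 13.4 CPM at 24 h without Dox. The pulsed cells stood above day 10 (1.32 ± 0.10, adjusted p = 1.78e-11) while the NoDox cells stood below it (-1.34 ± 0.11, adjusted p = 1.46e-09), with no overlap among the groups. Without Dox, DUSP6 did not fall steadily. It was at 38.9, 50.4 and 41.1 CPM at 12 h, above day 10, and at 28.1, 25.9 and 27.3 CPM at 48 h. DUSP4 (0.46, adjusted p = 4.71e-06) and PHLDA1 (0.54, adjusted p = 0.000145) overshot as well. Of the 23 tested FGF and ERK feedback genes, 15 were higher and 5 lower than at day 10, with a median of 0.53. In NoDox cells 2 were higher and 12 lower, with a median of -0.21.

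Other FGF genes were above day 10 at 24 h without having been 2-fold below it at 12 h. SPRY2, an inhibitor of receptor tyrosine kinase signals, lay just outside the overshoot class, with -1.0 at 12 h and 1.48 at 24 h. It was at 142, 166 and 160 CPM at 24 h Dox, against 52.6, 56.9 and 58.7 CPM at day 10. MAF (-0.97 and 1.11), GRIP2 (-0.95 and 1.02) and IGFBP5 (-0.93 and 1.24) were the next outside, and RGR (-1.0 and 1.69) lay just inside. ETV4, an ETS factor of this pathway, was at 83.8, 83.5 and 83.0 CPM at 24 h Dox, against 12.5, 16.6 and 15.3 CPM at day 10 (2.48, adjusted p = 1.54e-13). FGFR2, a receptor (2.07, adjusted p = 3.96e-15), SPRY4 (2.15, adjusted p = 4.15e-10) and the ligand FGF8 (1.66, adjusted p = 9.64e-13) were higher too, while the ligands FGF9 (-1.46) and FGF19 (-1.82) were lower.

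**Figure D3:**
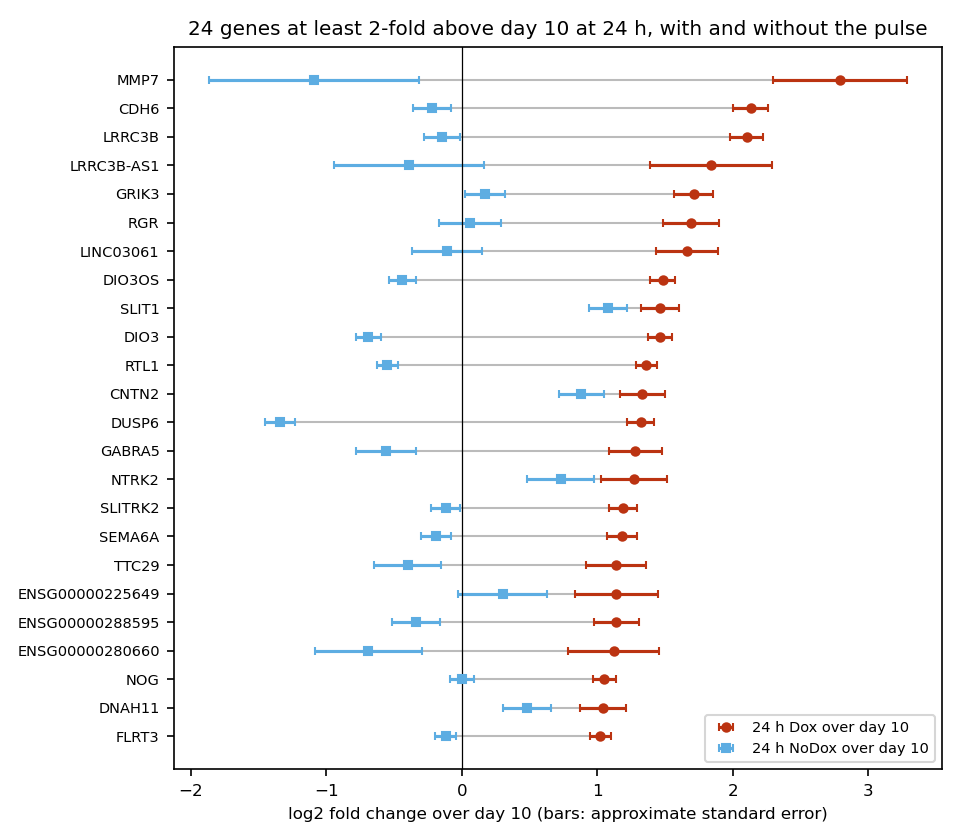
Log2 fold change over day 10, with approximate standard errors, for the 24 genes that overshot by at least 2-fold from a low level at 12 h, in 24 h Dox (circles) and 24 h NoDox cells (squares). All circles lie above 1; DUSP6, at 1.32 and -1.34, has circle and square on opposite sides of 0, and SLIT1, CNTN2 and NTRK2 have the squares farthest above 0.

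NoDox cells divided the overshooting genes. Of the 77 low genes that overshot, 57 were also higher at 24 h Dox than in NoDox cells of 24 h, 6 were lower and 14 were not called. Over all features tested, 17% were higher and 16.9% lower in that comparison. These genes, the strong ones included, were chosen for high values in the same 24 h Dox libraries. A level above NoDox cells was therefore in part given by the choice. Of all 889 features at least 2-fold above day 10, 585 were also higher than in NoDox cells. Of the 24 that overshot by at least 2-fold, 23 were also higher than in NoDox cells, and NTRK2 was the exception (0.54 ± 0.22, adjusted p = 0.0545). In NoDox cells against day 10, 20 of the 77 were higher, 13 lower and 44 not called. Among the 6 below their NoDox level, chosen after their values were seen, were THBS1, RUNX1T1 and ISLR2, at -0.75, -0.53 and -0.37 relative to NoDox. THBS1 was 0.21 above day 10 (adjusted p = 0.049) and overshot in 6 of 16 settings, and RUNX1T1 and ISLR2 in all 16. The overshoot of the 77 genes ran from 0.16 to 2.79 with a median of 0.71, a description of genes chosen on that comparison.

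NOG, which encodes the BMP antagonist Noggin, was at 38.0, 38.5 and 37.7 CPM at 24 h Dox, against 17.8, 17.3 and 20.0 CPM at day 10 (1.05 ± 0.09, adjusted p = 6.63e-11). NoDox cells, at 18.2, 19.7 and 17.2 CPM, overlapped day 10. SIX3, a factor of the anterior forebrain, was at 388, 395 and 383 CPM at 24 h Dox, against 218, 231 and 230 CPM at day 10 (0.78, adjusted p = 1.18e-08). OLIG2, a basic helix-loop-helix factor of ventral progenitors (0.93, adjusted p = 1.94e-07), the GABA transporter gene SLC32A1 (0.81, adjusted p = 0.00954) and the neurofilament gene NEFM (0.95, adjusted p = 3.85e-09) also overshot. For SLC32A1 the NoDox cells were above day 10 too (1.19, adjusted p = 0.000831), and the pulsed cells did not differ from them beyond the test (-0.38, adjusted p = 0.165). With library totals alone SIX3 and SLC32A1 left the overshoot class, and so did SLC32A1 without 12 h Dox replicate 3.

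Falls below day 10 after a rise were few. CHAC1, a glutathione-degrading enzyme of the ATF4 stress response, was at 1.85, 1.70 and 1.67 CPM at 24 h Dox, against 4.51, 4.71 and 4.77 CPM at day 10, after 11.4, 14.4 and 12.2 CPM at the end of the pulse. Its log2 fold change over day 10 was -1.42 ± 0.20 (adjusted p = 1.08e-06), and NoDox cells were lower as well (-0.84 ± 0.18, adjusted p = 0.00163). MYRIP, which links vesicles to myosin, was at 0.247, 0.565 and 0.0904 CPM at 24 h Dox, against 1.20, 1.5 and 1.28 CPM at day 10 (-2.12 ± 0.39, adjusted p = 7.67e-05). NoDox cells did not differ from day 10 for MYRIP beyond the test (0.41 ± 0.29, adjusted p = 0.363). RHOV, ADM2 and CYRIA were the other 3, at -1.02, -0.79 and -0.37. RHOV overshot in 9 of 16 settings, CYRIA in 13, and MYRIP and ADM2 in 15 each, MYRIP not without 12 h Dox replicate 1 and ADM2 not without day 10 replicate 1.

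SOX2, SOX3 and SOX4 were among the genes that had returned. SOX2, which maintains neural progenitors, was at 827, 761 and 748 CPM at 24 h Dox, against 1080, 993 and 986 CPM at day 10. It had been at 120, 133 and 153 CPM at the end of the pulse, a log2 fold change of -2.92, and the difference left at 24 h still passed the test (-0.39 ± 0.07, adjusted p = 6.58e-05). SOX3, a close relative, was at 193, 156 and 142 CPM at 24 h Dox, against 205, 149 and 158 CPM at day 10, with overlapping groups (-0.05 ± 0.16, adjusted p = 0.827). At 12 h SOX3 was at 36.2, 29.6 and 24.4 CPM with Dox and at 108, 76.5 and 92.8 CPM without it, both below day 10. SOX4, a factor of new neurons, was -0.23 ± 0.07 from day 10.

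The largest 12 h falls among the returned genes named were those of FZD5, a WNT receptor, and RMST, a long noncoding RNA of neural progenitors. FZD5 was at 424, 452 and 419 CPM at 24 h Dox, against 397, 558 and 581 CPM at day 10, after 41.2, 42.5 and 36.0 CPM at the end of the pulse. RMST was at 32.9, 30.8 and 29.8 CPM at 24 h Dox, against 34.5, 33.6 and 34 CPM at day 10. IGFBP3, which binds insulin-like growth factors, was at 149, 160 and 149 CPM at 24 h Dox, against 155, 166 and 151 CPM at day 10, after 17.1, 21.4 and 22.5 CPM at the end of the pulse. For IGFBP3 the NoDox cells were lower, at 32.3, 45 and 43.8 CPM (-1.97 ± 0.14 from day 10, adjusted p = 1.36e-08), and the pulsed cells stood 1.92 ± 0.14 above cells of their own age. FGFBP3, which carries FGFs, was -0.31 ± 0.08 from day 10, and at 12 h it was at 87.5, 110 and 115 CPM with Dox and at 363, 400 and 401 CPM without it.

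**Figure D4:**
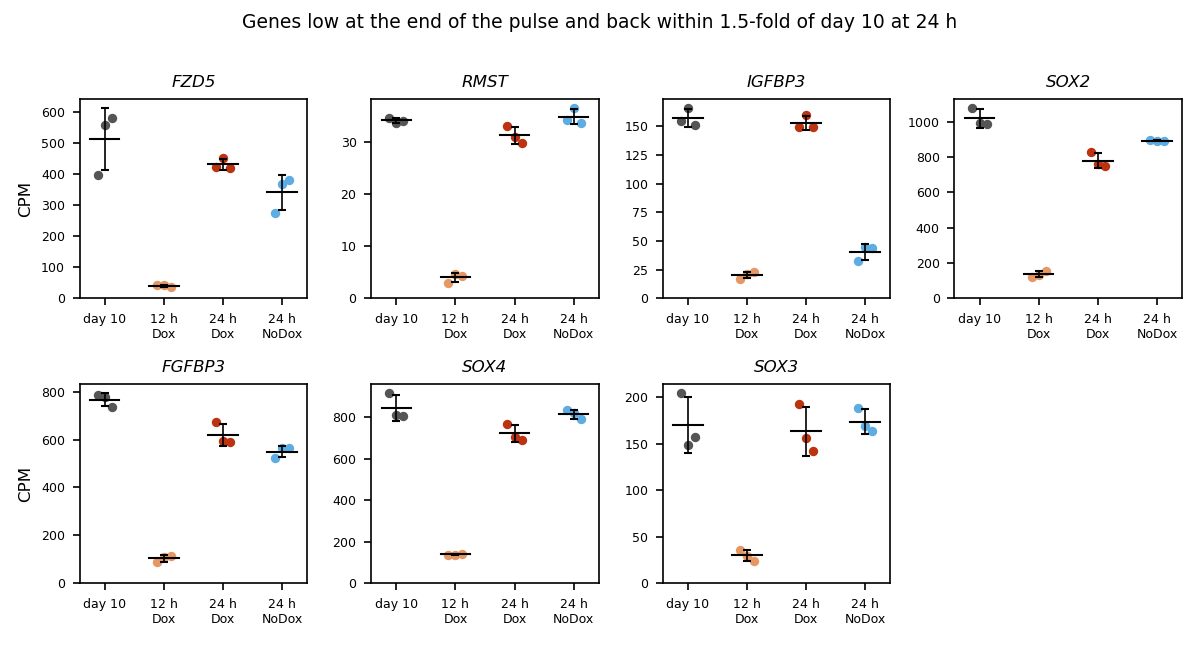
CPM in each library (points), with mean and SD (bars, n = 3), for 7 genes named as returned from a low level at 12 h, at day 10, 12 h Dox, 24 h Dox and 24 h NoDox. The 24 h Dox means lie close to day 10, while for IGFBP3 the NoDox libraries stay low, between 32.3 and 45 CPM.

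Of the 136 returned low genes, 95 were not called against day 10 and 41 were still called lower within the 1.5-fold margin, with a median of -0.13. Of the WNT list, 9 of 33 tested members were higher and 8 lower than at day 10. The median was 0.006, and over all features 18.4% were higher and 19.0% lower. Its returned members were the receptors FZD5 and, from a high level, FZD9, the ligand WNT7B (0.10), the secreted antagonists SFRP2 (-0.19) and FRZB (-0.38), and NKD1, an inhibitor of WNT signals that had been high at 12 h. NKD1 was at 13.1, 12.2 and 12.1 CPM at 24 h Dox, against 12.3, 14.3 and 12.4 CPM at day 10, after 35.2, 33.8 and 24.8 CPM at the end of the pulse. HSPH1, a heat shock protein gene, was at 83.3, 100 and 103 CPM at 24 h Dox, against 102, 90.4 and 92.5 CPM at day 10. At 12 h it was at 243, 211 and 231 CPM with Dox and at 251, 236 and 223 CPM without it, and these groups overlapped. LANCL2 was at 52.9, 37.1 and 34.5 CPM at 12 h with Dox and at 58.9, 57.1 and 54.1 CPM without it, both above day 10. INPP5J, PSD4, JAKMIP1, ADRA2B and JDP2 were the other returned high genes named, and with LANCL2 they lay between -0.27 and 0.31 of day 10.

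Of the dorsal pallial regulators, 0 had overshot, 0 had returned, 9 had returned in part and 4 had kept their change. Over all 19655 features tested, these classes held 82, 184, 448 and 763 in that order. EMX2, a factor of the cortical primordium, was at 25.1, 18.8 and 17.3 CPM at 24 h Dox, against 309, 279 and 266 CPM at day 10 (-3.80 ± 0.10, adjusted p = 7.69e-20). NoDox cells, at 327, 309 and 306 CPM, did not pass against day 10 (0.14 ± 0.09, adjusted p = 0.289). Of 19 tested dorsal pallial regulators 13 were lower and 3 higher than at day 10, with a median of -1.63, and EOMES (-3.06), NEUROG1 (-2.41) and TBR1 (-1.88) had returned in part. The 3 higher were LHX2 (0.72), NR2F2 (0.27) and FEZF2 (1.29). In NoDox cells 4 members were higher and 2 lower. Of 15 radial glia genes 3 were higher and 8 lower, with SOX21 (-3.03) and PTPRZ1 (-1.16) lowest. Of 17 immediate early genes 2 were higher and 12 lower, with a median of -1.04. Of 20 genes of G2 and M phase 0 were higher and 13 lower, with a median of -0.23.

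The 10 largest losses against day 10 included genes of signalling, secretion and membranes. RASGRP1, which activates RAS, was at 8.78, 7.09 and 7.42 CPM at 24 h Dox, against 128, 164 and 173 CPM at day 10 (-4.32 ± 0.12, adjusted p = 9.14e-19). PCSK1, a prohormone convertase, was at 0.906, 0.957 and 1.18 CPM at 24 h Dox, against 14, 13.6 and 13.7 CPM at day 10 (-3.76 ± 0.19, adjusted p = 1.77e-15). PCDH20, a protocadherin (-5.48 ± 0.43), UNC13C, a synaptic vesicle priming factor (-4.92 ± 0.42), TRPM8, a cold-gated channel (-4.61 ± 0.46), and ARHGAP36 (-4.20 ± 0.28) were low throughout, with at most 0.497 CPM in any 24 h Dox library. EDNRB, the endothelin B receptor (-3.83 ± 0.12), SHISA2 (-3.77 ± 0.09) and EMX2OS (-3.88 ± 0.11) had regained a part. GSX1, the closest relative of GSX2, had 1 read over the 24 h Dox libraries, against 57 at day 10, 66.4-fold fewer after scaling (95% counting interval 11.5 to 2670).

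Genes above day 10 included secreted antagonists and ligands of the TGF-beta family, of which CER1 was among the 10 largest gains. CER1, an antagonist of Nodal and BMP, was at 16.0, 14.3 and 14.8 CPM at 24 h Dox, against 0.141, 0.0881 and 0.177 CPM at day 10 (6.75 ± 0.37, adjusted p = 1.94e-14). Its highest NoDox library of 24 h was at 0.336 CPM. At 12 h CER1 was at 1.14, 0.577 and 0.917 CPM with Dox and at 1.78, 0.64 and 0.396 CPM without it. BMP2, a BMP ligand, was at 74.0, 69.4 and 66.6 CPM at 24 h Dox, against 7.47, 9.25 and 8.26 CPM at day 10 (3.06 ± 0.10, adjusted p = 7.69e-20). BMP2 was first called at 24 h, and 12 h Dox stood at 7.83, 7.62 and 8.41 CPM. LEFTY1, a Nodal antagonist, had 47 reads over the 24 h Dox libraries, against 3 at day 10, a ratio of 13.4 after scaling (95% counting interval 4.33 to 67.5). LEFTY1 was at 0.618, 0.609 and 0.814 CPM at 24 h Dox, and already at 0.866, 0.914 and 0.791 CPM at 12 h without Dox. Of 23 tested genes of the BMP, TGF-beta and Nodal list, 12 were higher and 5 lower, with a median of 0.61, against 3 higher and 1 lower in NoDox cells. The targets ID2 (1.76) and SMAD7 (1.18) were among the higher, and the antagonists GREM1 (-2.59) and FST (-1.43) among the lower. ID4 of the same list was lower too, at 207, 234 and 233 CPM at 24 h Dox, against 437, 385 and 406 CPM at day 10. For ID1 the groups overlapped, at 6.39, 6.35 and 8.77 CPM at 24 h Dox and 7.54, 6.25 and 5.83 CPM at day 10.

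Genes of the subpallium were among those first called at 24 h. DLX1, a homeobox factor of GABAergic neuron production, was at 129, 98.7 and 89.7 CPM at 24 h Dox, against 34.7, 24.6 and 26.6 CPM at day 10 (1.9, adjusted p = 5.04e-06). NoDox cells were at 53.7, 44.7 and 39.0 CPM, between the other groups. DLX2 (1.71, adjusted p = 0.000161) and GAD2, which makes GABA (1.93, adjusted p = 8.77e-07), were higher than at day 10 too, though DLX2 did not pass against NoDox cells (0.53, adjusted p = 0.133). VAX1, a ventral forebrain homeobox gene, was 2.04 above day 10 (adjusted p = 8.22e-15). Of 14 tested LGE and subpallial regulators 4 were higher and 5 lower, with a median of 0.08, and of 15 GABAergic and striatal genes 4 were higher and 3 lower, with a median of 0.13. The shares over all features were 18.4% higher and 19.0% lower. MEIS1 (-1.72) and PENK (-1.84) were lower. In NoDox cells 9 of the 15 GABAergic and striatal genes were higher than at day 10 and 0 lower. The shares over all features in NoDox cells were 8.84% higher and 8.47% lower. Relative to NoDox cells of 24 h, pulsed cells were higher for 4 and lower for 8 of the LGE and subpallial regulators, with a median of -0.57. They were higher for 1 and lower for 7 of the GABAergic and striatal genes, with a median of -0.74. In that comparison 17% of all features were higher and 16.9% lower.

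Markers of other cell types moved beside these genes, in both directions. Of 7 tested mesenchyme markers 1 was higher and 4 lower, and of 8 of diencephalon and eye field 1 and 4. Of 8 cortical hem and choroid plexus markers 2 were higher and 3 lower. The counts were 0 and 2 of 3 for midbrain and hindbrain and 1 and 2 of 6 for astrocytes. They were 2 and 0 of 5 for neural crest and 4 and 2 of 7 for the oligodendrocyte lineage. SELE, an endothelial adhesion gene, was at 13.6, 22.4 and 21.2 CPM at 24 h Dox, against 0.493, 0.176 and 0.0442 CPM at day 10 (6.51 ± 0.44, adjusted p = 9.75e-11). KDR, a VEGF receptor, was at 32.9, 41.9 and 39.0 CPM at 24 h Dox, against 1.27, 3.79 and 3.05 CPM at day 10 (3.73 ± 0.23, adjusted p = 1.65e-11). The endothelial list summed to 55.8 to 74.8 CPM at 24 h Dox and 8.88 to 12.2 CPM at day 10, with 4 of 7 tested members higher. The others higher were VWF (1.06, adjusted p = 0.00919) and TEK (0.75, adjusted p = 0.0318), while CDH5 (-0.28), CLDN5 (-0.36) and TIE1 (0.33) did not pass. The 3 untested members were near 0: PECAM1 had 17 reads, ERG 6 and SOX18 1 over the 24 h Dox libraries, against 3, 1 and 0 at day 10. Of 6 tested markers of non-neural ectoderm and epithelium, 4 were higher and 1 lower, and the list summed to 446 to 572 CPM at 24 h Dox and 350 to 395 CPM at day 10. KRT19, a keratin gene, was lower, at 70.9, 87 and 84.6 CPM at 24 h Dox, against 118, 106 and 98.1 CPM at day 10. GRHL3, a factor of surface ectoderm (3.03 ± 0.25, adjusted p = 5.57e-11), was the highest. Their part in the gains was not tested. FOXI1, also of ectoderm (5.49 ± 0.34), ITGAX, an integrin with 141 reads at 24 h Dox against 3 at day 10, and ERMN, a cytoskeletal gene of oligodendrocytes, were among the 10 largest gains. ERMN had 166 reads at 24 h Dox and 0 at day 10, at least 47.5-fold higher if day 10 is set at 3 counts in all. NPR1, INSYN2B and INSYN2A, at 3.61, 3.34 and 2.98, were other gains first called at 24 h, and ACOXL (4.35), COX4I2 (4.03) and MIR7-3HG (3.70) other large ones.

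Part of the difference from day 10 was shared with NoDox cells. Of 20 hypoxia and glycolysis genes 19 were higher at 24 h Dox and 0 lower, with a median of 1.01, and in NoDox cells all 20 were higher, with a median of 0.93. PFKFB4, a regulator of glycolysis, was at 326, 299 and 299 CPM at 24 h Dox, against 89.9, 80.7 and 83.2 CPM at day 10, and at 247, 220 and 226 CPM in NoDox cells. The glucose transporter gene SLC2A1 was at 3570, 3540 and 3520 CPM at 24 h Dox, against 987, 1040 and 1030 CPM at day 10, and 1550, 1600 and 1620 CPM in NoDox cells. Of 13 mitochondrially encoded genes 9 were lower and 0 higher in both, with medians of -0.40 at 24 h Dox and -0.54 in NoDox cells. Of 20 genes of G1 and S phase 13 were lower and 2 higher at 24 h Dox, and CCND1, cyclin D1, was the larger of the rises (1.08, adjusted p = 1.19e-12).

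**Figure D5:**
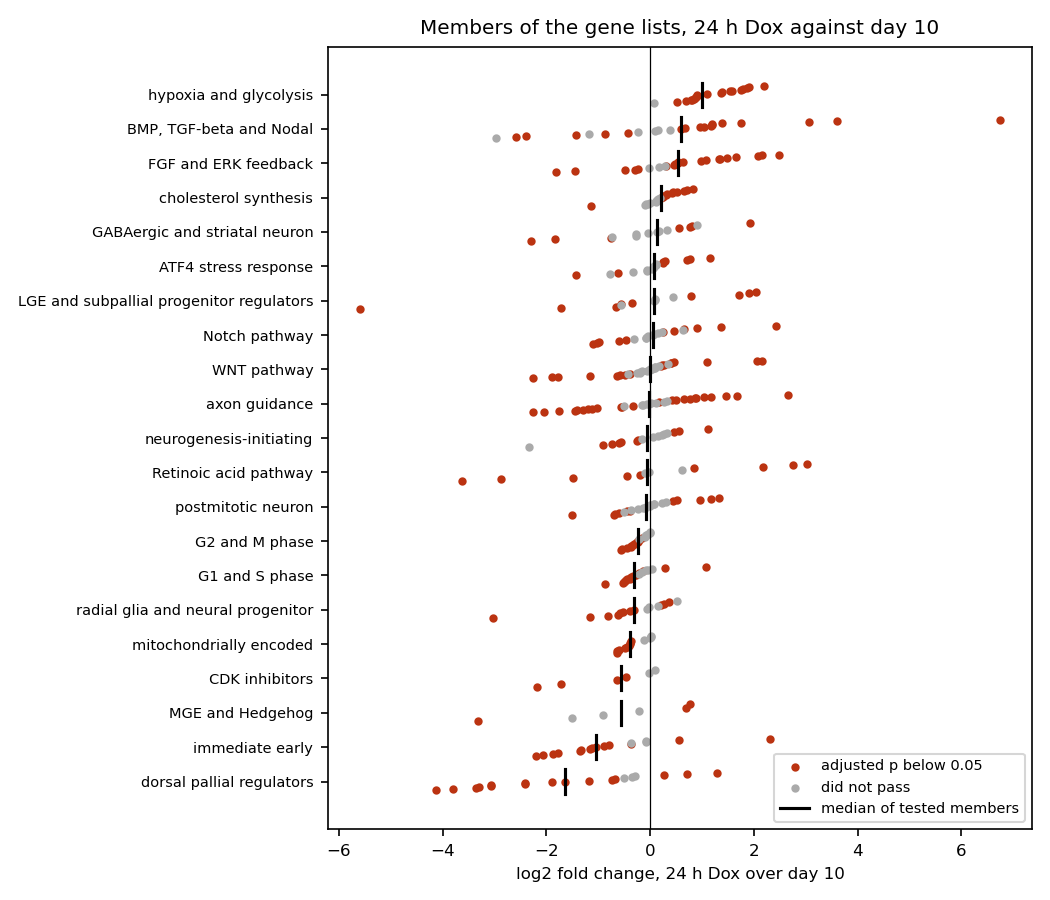
Log2 fold change of 24 h Dox over day 10 for each tested member (points) of the 21 gene lists, with the list median (bars); red points passed an adjusted p below 0.05. Hypoxia and glycolysis genes lie highest, with a median of 1.01, and dorsal pallial regulators lowest, with a median of -1.63.

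Notch and other lists were mixed. Of 21 tested Notch genes 6 were higher and 5 lower, with a median of 0.06. These counts lay not far above the shares over all features, 18.4% higher and 19.0% lower. The effectors HEY1 (2.42, adjusted p = 7.69e-20) and HES1 (1.37, adjusted p = 2.23e-09) were higher, and HES5 (-1.01) and the modifier LFNG (-1.10) lower. JAG1, a ligand, overshot (0.47, adjusted p = 0.000119), and DLL1, another, had returned (-0.07, adjusted p = 0.369). Of 12 retinoic acid genes 4 were higher and 5 lower. STRA6, a retinol transporter (2.76, adjusted p = 1.69e-17), was among the higher, and ALDH1A1, which makes retinoic acid, was first called lower at 24 h (-3.62 ± 0.77, adjusted p = 0.000945), as were RAB27B (-1.92), FIBCD1 (-1.76), TMEFF2 (-1.69), RBM47 (-1.65) and CBLN1 (-1.62). Of 21 cholesterol synthesis genes 11 were higher and 1 lower, with a median of 0.22. Of 16 neurogenesis genes 3 were higher and 6 lower, of 23 genes of postmitotic neurons 5 and 6, of 18 ATF4 stress genes 6 and 2, of 6 genes of the medial ganglionic eminence and Hedgehog signals 2 and 1, and of 6 CDK inhibitors 0 and 4. In NoDox cells 17 of the 23 postmitotic neuron genes were higher than at day 10 and 0 lower, against 8.84% and 8.47% over all features. Pulsed cells were lower than NoDox cells for 17 and higher for 4, against 16.9% and 17% over all features.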

How the data were processed

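Poly-A RNA libraries were made with a directional kit, per the labels. The authors deposited raw read counts per feature, and a table of normalized counts (a signal scaled by the authors across libraries). The submitters' processing notes name STAR 2.7.9, Subread 2.0.3, DESeq2 and hg38; which annotation and strand setting were used is not given in the sources used here. All 21 libraries in 7 groups of 3 were fitted with edgeR 4.0.16 (R 4.3.3): TMM scaling, filterByExpr, robust quasi-likelihood F tests and Benjamini-Hochberg adjustment over 19655 features. The ± of a log2 fold change is an approximate standard error from the F statistic. Counting intervals and floors (3 counts) cover counting error only. Promoters came from RefSeq by symbol.

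Members and gene lists were chosen with earlier results of these data known. Named genes were the transgene, GSX2, the 10 largest changes each way, up to 12 overshooting, 8 returned, 6 kept and 6 first called at 24 h each way (at least 2 CPM), and list members; some are not reported here. Same-numbered libraries of 24 h Dox and day 10 did not deviate together. Alternatives were DESeq2 1.42.0 (Wald test and size factors), limma 3.58.1 on the deposited normalized signal plus 1, library totals, no filter, a fit of 3 groups, a replicate block, other thresholds and leaving out each library. Scripts were tested on simulated data.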

Additional observations from a re-analysis of the deposited data

Results flagged for a closer look

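Of 167 named genes, 26 had moved from day 10 in opposite directions by 24 h with the pulse and without it. Each change passed, and the direct comparison of 24 h Dox and 24 h NoDox cells passed too (edgeR's quasi-likelihood test). Most of the 167 were named for their change from day 10 in the same 24 h Dox libraries. The count was therefore in part given by the choice, and the share over all features was not counted. The log2 fold change of pulsed over NoDox cells was 3.19 for SLIT3, 3.18 for ETV4, 3.16 for SPRY4, 2.66 for DUSP6, 2.15 for DIO3, 1.92 for DIO3OS and 1.91 for RTL1. It was 1.9 for SOX10, 1.69 for KRT18, 1.31 for CCND1, 0.95 for NGFR and 0.90 for KRT8. Pulsed cells were lower, by log2 fold changes of -0.92 for PAX6, -0.99 for RSPO1, -1.12 for NHLH1, -1.17 for INSM1, -1.69 for LUM, -1.89 for OTP and -2.13 for MEIS1. The same held at -2.67 for CDKN2B, -2.67 for CBLN1, -2.72 for ROBO2, -2.91 for FGF19, -4.55 for PCSK1, -5.28 for BARHL2 and -6.40 for PCDH20. For PCDH20 the changes from day 10 were -5.48 with the pulse and 0.92 without it, and for ETV4 they were 2.48 and -0.70.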

How the results depend on the processing

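No result reversed. With no minimum on the 12 h change, overshooting genes were 396 low and 211 high (54 and 8 by at least 2-fold), returned 1625 and 1361, and kept 1560 and 1603. With library totals alone, 13 high genes overshot, 339 high genes had returned in part, and 126 high and 87 low genes had returned. With no low-count filter, 3 high genes overshot. With a 2-fold margin, 330 low and 218 high genes had returned and 151 low genes had returned in part. Tested against a 2-fold change, 261 features were higher and 260 lower. Without 1 library at a time, features higher were 3058 to 3383 and lower 3123 to 3399 (at least 2-fold, 835 to 892 and 584 to 666). Low genes were 66 to 90 for overshoot (strong, 21 to 27), 122 to 158 returned, 239 to 280 returned in part and 302 to 349 kept. High genes were 3 to 7 for overshoot (strong, 2 to 4), 28 to 53, 131 to 201 and 389 to 442 in that order. Those first called at 24 h were 243 to 312 higher and 123 to 188 lower. Between same-numbered libraries of 24 h Dox and day 10, deviations correlated at -0.010, -0.014 and 0.011. They correlated at 0.062, 0.036 and 0.031 between 24 h Dox and 24 h NoDox. Between 12 h Dox and day 10 the values were -0.177, 0.029 and -0.187. Single genes could still follow the replicate number. DLX6-AS1 was highest in replicate 1 at 24 h, at 40.6, 22.3 and 18.9 CPM with Dox and 302, 185 and 168 CPM without it. The labels do not say what a replicate number marks. The replicate block gave 84 low and 6 high overshooting genes. DESeq2's Wald test shared 80 of the 82 overshooting genes. In the shallowest library, of 14439089 counts, 3 counts stand for 0.211 CPM.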

Other observations

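In the imprinted DLK1 to DIO3 region of chromosome 14 (100725705 to 101620355, hg38), 9 of 126 features were tested, and 6 were higher and 0 lower at 24 h Dox than at day 10. Over all features tested, 18.4% were higher and 19.0% lower. MEG3 (0.92 ± 0.13, adjusted p = 1.34e-05), RTL1, DIO3OS and DIO3 overshot, and MEG9 (1.75 ± 0.26, adjusted p = 4.34e-06) and ENSG00000230805 (1.87 ± 0.17, adjusted p = 6.07e-10) were first called at 24 h. DLK1 had returned (0.09 ± 0.08), and MEG8 (0.34 ± 0.16, adjusted p = 0.102) and MIR493HG (0.27 ± 0.26, adjusted p = 0.444) did not pass. The region was chosen after its values were seen, and several of these features overlap on opposite strands.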
